A study of Mus musculus with 18 samples.

Results

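The miR-19 and miR-25/92 families were followed through 18 small RNA libraries of NIH/3T3, a fibroblast line derived from mouse embryos. The members are 8 mature microRNAs (miRNAs), taken by name from the deposited table of miRNA reads: mmu-miR-92a-3p, mmu-miR-92b-3p, mmu-miR-25-3p, mmu-miR-363-3p, mmu-miR-32-5p, mmu-miR-19a-3p, mmu-miR-19b-3p and mmu-miR-92a-1-5p, written below without the species prefix. They are 8 of 1907 mature miRNAs in the table, of which 1232 had any read. Libraries were made from input RNA and from RNA recovered by immunoprecipitation (IP) with a mouse monoclonal antibody against pseudouridine (Ψ), the isomer of uridine that Ψ synthases make in RNA. The cells were wild type (WT) or carried a knockdown of Pus1, the gene of one Ψ synthase, of 3 days (KD3) or 6 days (KD6). The knockdown at 6 days used small interfering RNA against Pus1, and whether WT cells received a control RNA is not given in the sources used here. Each of the 6 groups (WT, KD3 and KD6, input and IP) had 3 libraries, lettered A, B and C. Nothing in the labels says that the replicates were separate cultures, so p-values measure the spread between these libraries, which may be technical. Pus1 messenger RNA is outside this table of miRNAs, so the knockdown was not checked. No library from a control antibody was analysed here either.

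An miRNA is cut from a hairpin in a longer primary transcript and guides Argonaute proteins to messenger RNAs that match its seed, the bases near its 5′ end. The miR-17-92 primary transcript carries the miR-17, miR-18, miR-19 and miR-92 hairpins on one RNA, and its products are known for promoting proliferation and survival. Paralogous clusters give miR-25 with miR-106b and miR-93, and miR-363 with miR-106a. Members of the miR-25/92 family share one seed and are therefore expected from sequence to recognise overlapping sets of target sites, among them sites in Bcl2l11.

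The mature sequences (RefSeq, assembly GRCm38.p6, 5′ to 3′) show how alike the members are, with the seed, bases 2 to 8, in capitals. All 8 members matched an entry. These are shown because the comparisons below set miRNAs with the same seed side by side.
miR-92a-3p: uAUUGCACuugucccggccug
miR-92b-3p: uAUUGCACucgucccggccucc
miR-25-3p: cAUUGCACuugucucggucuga
miR-32-5p: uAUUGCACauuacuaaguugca
miR-363-3p: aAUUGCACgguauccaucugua
miR-19a-3p: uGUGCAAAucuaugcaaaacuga
miR-19b-3p: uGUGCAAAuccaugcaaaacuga
miR-92a-1-5p: aGGUUGGGauuugucgcaaugcu

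The seed AUUGCAC was found in 6 of 1679 RefSeq mouse miRNAs, 5 of them members and the other miR-367-3p. The seed GUGCAAA was found in 2, miR-19a-3p and miR-19b-3p. The seed of miR-92a-1-5p, which comes from the opposite arm of the same hairpin as miR-92a-3p, was found in no other entry. The 2 family seeds mirror each other over 6 bases, since UUGCAC in the first is the reverse complement of GUGCAA in the second. Either string was rare in the sense orientation of mature miRNAs, with UUGCAC in 0.893% and GUGCAA in 0.715% of the 1679 entries.

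Within the families the differences are few. Counting positions from 1 at the 5′ end and writing the first miRNA's base first, miR-19a-3p and miR-19b-3p differed at a single position, U11C, over 23 bases. The differing base is in capitals here, because the IP separated this pair.
miR-19a-3p: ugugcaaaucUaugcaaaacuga
miR-19b-3p: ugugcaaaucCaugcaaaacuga

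Between miR-92a-3p and miR-92b-3p there were 2 differences over 21 shared bases, U10C and G21C. Between miR-92a-3p and miR-25-3p there were 3, U1C, C14U and C18U. miR-32-5p and miR-363-3p differed from miR-92a-3p at 10 and 11 of 21 bases.

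The members come from 5 genomic places (GRCm38.p6 for RefSeq positions, GENCODE M21 for host genes). miR-19a-3p lies at chr14:115044048-115044070, miR-19b-3p at chr14:115044358-115044380, miR-92a-1-5p at chr14:115044437-115044459 and miR-92a-3p at chr14:115044476-115044496, all on the plus strand and in exonic sequence of the long noncoding host Mir17hg. A second copy of miR-19b-3p (chrX:52741991-52742013) and of miR-92a-3p (chrX:52741854-52741874) lies on the minus strand of chromosome X beside miR-363-3p (chrX:52741697-52741718), with no other annotated gene over them. miR-25-3p lies at chr5:138165332-138165353, minus strand, inside Mcm7, where only a retained-intron transcript covers it. miR-32-5p lies at chr4:56895272-56895293, minus strand, in an intron of Tmem245. miR-92b-3p lies at chr3:89227126-89227147, minus strand, with no other annotated gene over it. The 5′ ends recorded in the deposited table matched these positions for all 10 loci.

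Mapped reads ranged from 3989031 to 15099781 in 17 libraries, and replicate A of the KD6 input held 241109. That library stands apart from the others, and KD6 values are therefore also given without it. Between 5.47% and 38.2% of mapped reads fell outside miRNA rows, with group means from 5.60% in WT input to 32.4% in KD3 IP. These shares moved with IP in each condition, and they were also higher after knockdown. The input means were 5.60%, 9.66% and 8.82% in WT, KD3 and KD6, and the IP means 16.8%, 32.4% and 27.6%. The part of these shares in the results was not tested. Levels are given as CPM, reads set to a common effective library size, and a count of 0 allows up to 3 counts, which corresponded to 0.216 to 14.8 CPM depending on the library. Such limits cover counting error only.

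The members were chosen by name together with their reads summed over all 6 groups, which are given as a description. miR-92a-3p had 1858326 reads and stood 12th among all miRNAs, followed by miR-25-3p with 293125 reads. The other members were scarcer, with 9789 reads of miR-19b-3p, 7959 of miR-32-5p, 4756 of miR-92b-3p, 2171 of miR-19a-3p and 1094 of miR-92a-1-5p. miR-363-3p had 0 reads in all 18 libraries, which allows up to 0.0232 CPM over the libraries together. It entered no test, and the 7 other members passed the filter on low counts.

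In WT cells, IP was set against input to ask which members the Ψ antibody recovered in excess. miR-92a-3p and miR-92b-3p were several fold higher in IP, whereas miR-19b-3p and miR-92a-1-5p were far lower. miR-32-5p was lower by less than 2-fold, and the values of miR-25-3p and miR-19a-3p did not separate IP from input. Of the 7 members tested, 5 passed an adjusted p of 0.05 (edgeR quasi-likelihood test, Benjamini-Hochberg adjustment over 550 miRNAs), 2 higher and 3 lower. One of the lower calls is miR-92a-1-5p, which passed the filter on low counts only through its inputs, so its direction was largely set by the filter in each condition. Among all 550 miRNAs 68.9% passed, 31.5% higher and 37.5% lower, so the number of members called is not in itself a feature of these families. IP and input did not overlap for 5 members, against 75.8% of all miRNAs. The median log2 ratio of IP to input was -0.65 over the 7 members and -0.04 over all miRNAs.

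miR-92a-3p, the major product of its hairpin, reached 4695, 4705 and 4328 CPM in the WT input libraries and 33281, 34398 and 38706 CPM in the WT IP libraries (A, B and C). All IP libraries lay above all inputs, and the replicates of each side were close together. The mean rose from 4576 ± 214 to 35461 ± 2865 CPM (SD, n = 3), a log2 ratio of 2.95 ± 0.22 (SE, edgeR adjusted p = 1.37e-10). Only 11 of the 550 miRNAs had a higher ratio, which places miR-92a-3p at rank 12. Its share of all miRNA reads was 0.523% ± 0.025 in input and 3.65% ± 0.16 in IP (SD, n = 3).

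miR-92b-3p, which has the same seed and comes from a locus of its own, was much scarcer. It had 13.0, 15.9 and 13.0 CPM in the WT inputs and 67.9, 55.9 and 74.5 CPM in the IP libraries. The groups again did not overlap, with a log2 ratio of 2.24 ± 0.26 (SE, edgeR adjusted p = 1.59e-07) at rank 54.

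miR-25-3p, the product of the Mcm7 hairpins that shares this seed, had 2435, 2391 and 2220 CPM in the WT inputs and 2326, 2379 and 3008 CPM in the WT IP libraries. The 2 groups overlapped, and the log2 ratio was 0.13 ± 0.19 (SE, edgeR adjusted p = 0.541). miR-32-5p, the most divergent detected member of the family, had 63.4, 55.8 and 80.9 CPM in input and 33.3, 49.9 and 26.9 CPM in IP. It lay lower in every IP library, with a log2 ratio of -0.86 ± 0.30 (SE, edgeR adjusted p = 0.0146). This call was lost without input C (-0.68), IP A (-0.79) or IP C (-0.68).

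miR-19b-3p, one of the miR-19 pair, had 97.5, 103 and 103 CPM in the WT inputs and 3.93, 3.09 and 2.36 CPM in the WT IP libraries. The IP libraries held 15.9, 16.6 and 15.6 reads of it, against 1019 to 1421 in input. The log2 ratio was -5.01 ± 0.42 (SE, edgeR adjusted p = 1.05e-09), the 29th lowest of 550. Counts summed over the 3 libraries gave 33.9 times as much in input as in IP after scaling, with a 95% interval from 25.5 to 46.0 that covers counting error only.

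miR-19a-3p, its 1-base neighbour, behaved differently in the same libraries. It had 15.7, 17.5 and 20.4 CPM in the WT inputs and 15.9, 8.26 and 10.4 CPM in the IP libraries, and IP library A overlapped with the inputs. The log2 ratio was -0.65 ± 0.38 (SE, edgeR adjusted p = 0.129). It passed the threshold with TMM factors (-0.96) and total mapped reads (-0.98), but not with library size alone (-0.79, edgeR adjusted p = 0.111). With only the WT libraries in the model it passed at -0.78. How many mismatches the counting allowed between a read and an miRNA is not given in the sources used here, which matters for a pair separated by 1 base.

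miR-92a-1-5p, the passenger-arm product of the miR-92a-1 hairpin, had 136, 140 and 224 reads in the WT inputs and 0, 4 and 2 reads in the IP libraries. Input exceeded IP 36.2 times after scaling (95% counting interval 16.5 to 99.2). The opposite arm of the same hairpin, miR-92a-3p, was higher in IP in the same libraries. The 2 arms are not contrasted, because the filter on low counts largely set the direction of miR-92a-1-5p.

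**Figure D1:**
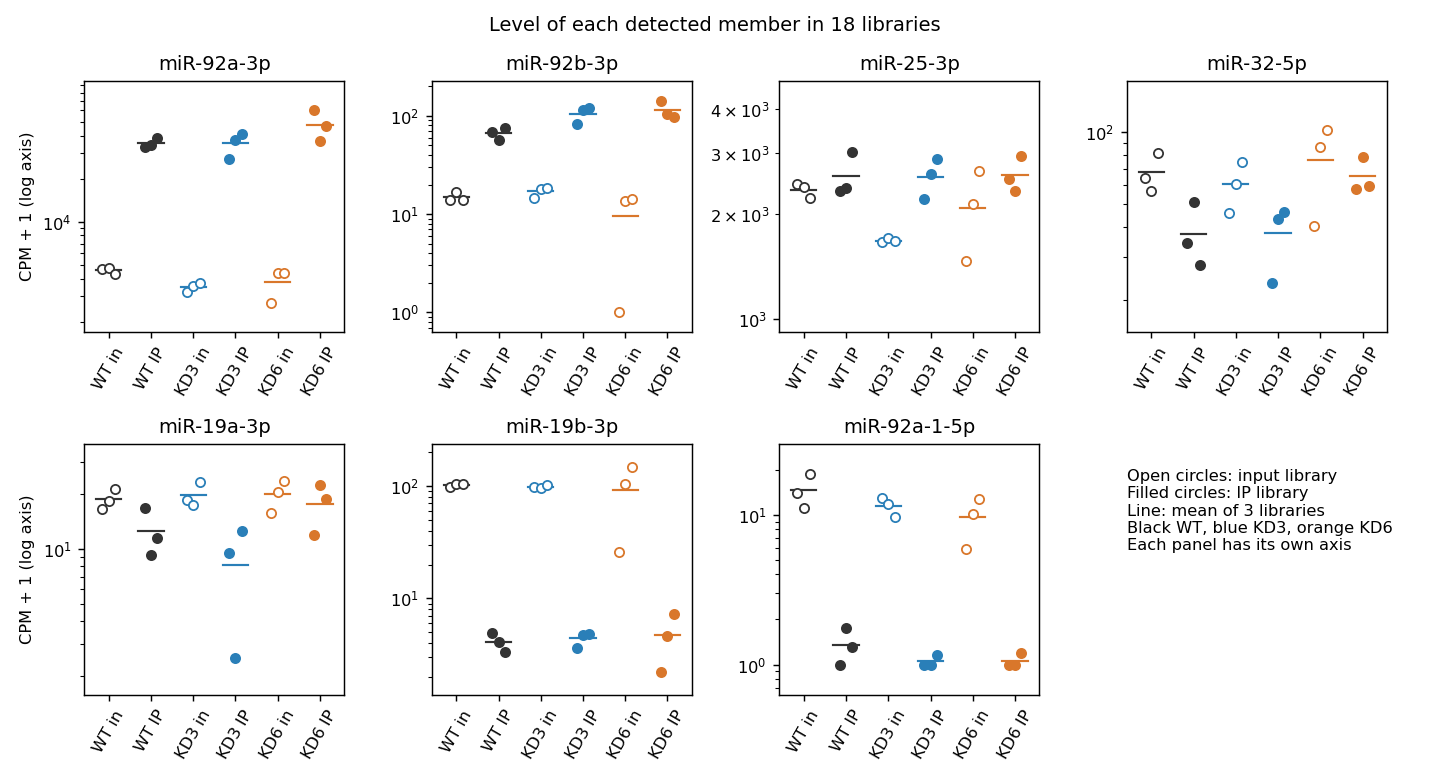
Level of the 7 detected members in each library, as CPM plus 1 on a log axis that differs between panels, with open circles for input, filled circles for IP and a line for the mean of 3. miR-92a-3p rises from 4328 to 4705 CPM in the WT inputs to at least 33281 CPM in the WT IP libraries, while miR-19b-3p falls from at least 97.5 CPM to at most 3.93 CPM.

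In the same comparison after 3 days of Pus1 knockdown, miR-92a-3p and miR-92b-3p were again well above input, and miR-19b-3p far below. miR-92a-1-5p was also far below, but its direction was largely set by the filter on low counts. miR-25-3p was now moderately higher and miR-19a-3p moderately lower in IP. In all, 6 of 7 members were called, 3 higher and 3 lower (miR-92a-1-5p among the latter), against 70.5% of all miRNAs, 34.4% higher and 36.2% lower. The same number of members had IP and input libraries that did not overlap, against 75.5% of all miRNAs.

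In KD3, miR-92a-3p had 3209, 3523 and 3698 CPM in input and 27432, 37487 and 40928 CPM in IP. All IP libraries lay above all inputs, with a log2 ratio of 3.34 ± 0.22 (SE, edgeR adjusted p = 2.49e-11, rank 11). miR-92b-3p had 13.6, 17.2 and 17.6 CPM in input and 81.6, 113 and 119 CPM in IP, a log2 ratio of 2.70 ± 0.27 (SE). miR-25-3p had 1662, 1705 and 1667 CPM in input and 2203, 2596 and 2878 CPM in IP, so that the groups no longer overlapped. Its log2 ratio was 0.61 ± 0.19 (SE, edgeR adjusted p = 0.00718), but this call depended on scaling and was lost with TMM factors (0.38), library size alone (0.45) and total mapped reads (0.021).

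miR-32-5p had a log2 ratio of -0.68 ± 0.30 (SE, edgeR adjusted p = 0.0501) in KD3, just outside the threshold, and its IP and input values overlapped. It was called under 8 of 15 alternatives, among them TMM factors (-0.91), total mapped reads (-1.27) and only the libraries compared (-0.83). For miR-19a-3p the KD3 inputs held 17.7, 16.3 and 22.5 CPM and the IP libraries 8.52, 1.51 and 11.6 CPM, where the middle value rested on 4 reads. The log2 ratio was -1.29 ± 0.40 (SE, edgeR adjusted p = 0.00671). miR-19b-3p had 96.8, 94.0 and 100.5 CPM in input and 2.65, 3.77 and 3.83 CPM in IP, with a log2 ratio of -4.80 ± 0.43 (SE, edgeR adjusted p = 2.62e-09). miR-92a-1-5p had 166, 140 and 72 reads in input and 0, 0 and 1 in IP, so the ratio of input to IP, 125, had a counting interval from 22.3 to 4960.

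After 6 days, miR-92a-3p and miR-92b-3p were higher in IP and miR-19b-3p and miR-92a-1-5p lower, and these 4 of 7 members were the ones called, against 71.3% of all miRNAs, 35.8% higher and 35.5% lower. They were also the members without overlap between IP and input, against 59.8% of all miRNAs. For miR-92a-1-5p the direction was again largely set by the filter on low counts. miR-92a-3p had 2688, 4351 and 4379 CPM in input and 60154, 36844 and 46365 CPM in IP. The log2 ratio was 3.65 ± 0.22 (SE, edgeR adjusted p = 7.72e-12, rank 26), and 2.99 without input A. miR-92b-3p had 0, 12.5 and 13.3 CPM in input and 140, 104 and 97.4 CPM in IP, with a log2 ratio of 3.24 ± 0.30 (SE, edgeR adjusted p = 4.25e-09), and 2.68 without input A, the library in which it had no read.

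miR-25-3p overlapped between KD6 IP and input. Its log2 ratio was 0.31 ± 0.19 (SE, edgeR adjusted p = 0.15) and turned to -0.34 without input A. miR-32-5p and miR-19a-3p gave -0.37 ± 0.31 and -0.29 ± 0.40 (SE), with edgeR adjusted p of 0.294 and 0.53. Without input A these became -0.99 and -0.79, and the former then passed (edgeR adjusted p = 0.00753). Both were called with library size alone, at -1.17 for miR-32-5p and -1.10 for miR-19a-3p, and with total mapped reads, at -1.50 and -1.42. miR-19b-3p had 24.7, 103 and 147 CPM in input and 1.21, 3.61 and 6.30 CPM in IP, where the lowest value of each side rested on 5 and 3 reads. Its log2 ratio was -4.65 ± 0.42 (SE, edgeR adjusted p = 3.48e-09), and -5.36 without input A. miR-92a-1-5p had 1, 67 and 141 reads in input and 0, 0 and 1 in IP, a ratio of 108 with a counting interval from 19.1 to 4270.

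**Figure D2:**
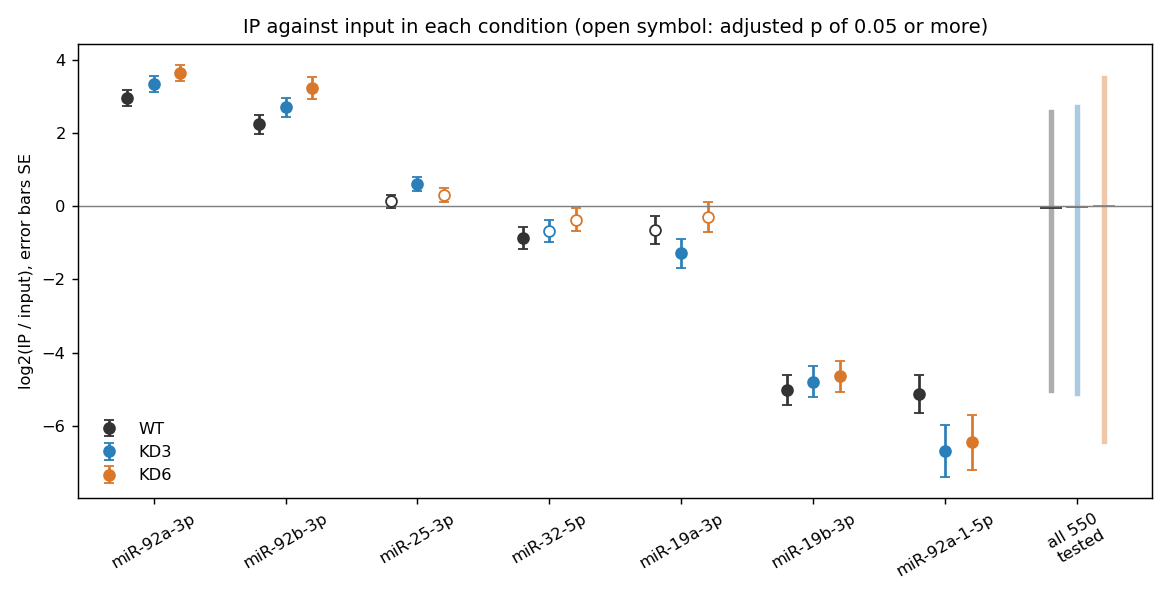
log2 ratio of IP to input for each tested member in WT (black), KD3 (blue) and KD6 (orange), with SE as error bars and open symbols where the adjusted p was 0.05 or more. At the right, vertical lines span the 5th to 95th percentile of all 550 miRNAs with a dash at the median. miR-92a-3p (2.95 to 3.65) and miR-92b-3p (2.24 to 3.24) lie above 0 in each condition, and miR-19b-3p (-5.01 to -4.65) lies below.

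These ratios are relative to the median-ratio scaling of the libraries. Other scalings moved the median of all miRNAs from -0.04 to between -0.37 and -0.19 in WT, and from 0.00 to between -1.14 and -0.35 in KD6. The directions of miR-92a-3p, miR-92b-3p and miR-19b-3p held under each of them. That of miR-92a-1-5p held as well, but it was largely set by the filter on low counts. The direction of miR-25-3p turned negative in WT with all 3 other scalings and in KD6 with library size alone and total mapped reads.

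**Figure D3:**
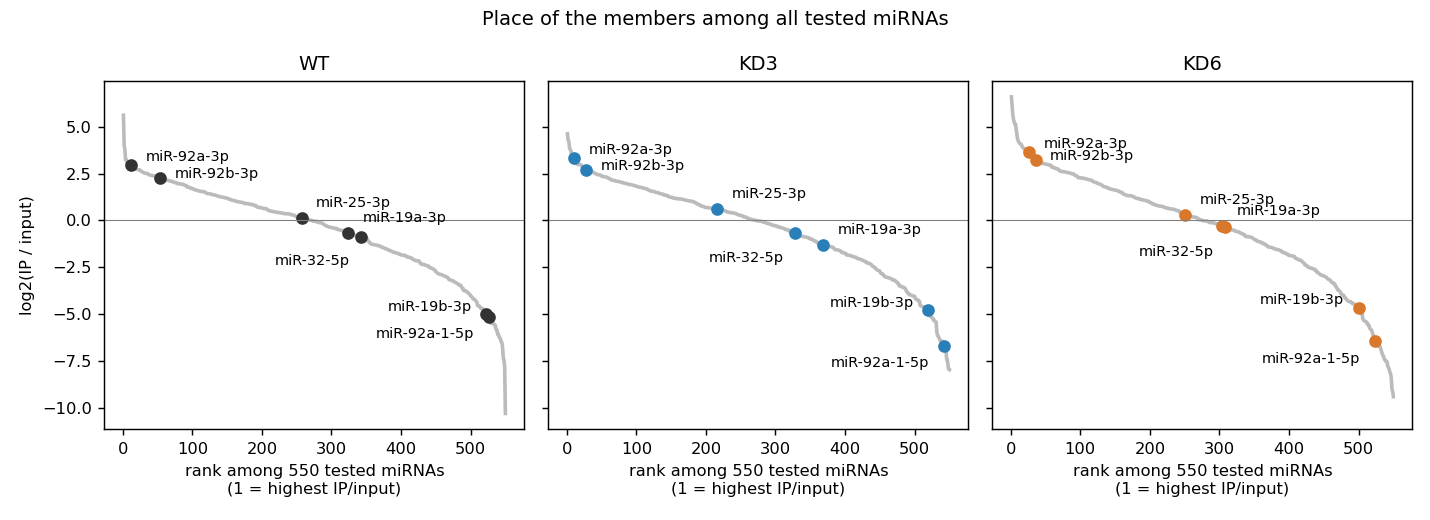
All 550 tested miRNAs ordered by log2 ratio of IP to input (grey curve) in WT, KD3 and KD6, with the members as points. miR-92a-3p sits at ranks 12, 11 and 26 from the top, and miR-19b-3p at ranks 29, 31 and 51 from the bottom.

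Ratios of 2 members within a library do not depend on scaling, and they show how far the IP moved one relative to the other. They are ratios of reads, not of molecules. For miR-19a-3p to miR-19b-3p the ratio was 0.161, 0.169 and 0.198 in the WT inputs and 4.04, 2.67 and 4.41 in the WT IP libraries. In input, miR-19b-3p was thus the more frequent of the pair in each library, and in WT IP it was the less frequent. The KD3 inputs gave 0.183, 0.174 and 0.224, and the KD3 IP libraries 3.21, 0.40 and 3.02, where the middle library held 4 and 10 reads of the pair. The KD6 inputs gave 0.60, 0.191 and 0.154, and the KD6 IP libraries 9.0, 5.97 and 2.83. IP lay above input within each condition. The mean shift was 3.87 on the log2 scale, or 14.6-fold (two-sided exact permutation of IP and input labels inside each condition, p = 0.00025, which is the least that 8000 assignments can give, adjusted p = 0.0003 over 6 ratios, higher in 9 of 9 same-letter pairs).

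miR-92a-3p and miR-25-3p share a seed and differ at 3 of 21 bases. Their ratio was 1.93, 1.97 and 1.95 in the WT inputs and 14.3, 14.5 and 12.9 in the WT IP libraries. Over all conditions it ran from 1.65 to 2.22 in input and from 12.5 to 23.8 in IP, with no overlap. The shift was 7.75-fold (exact permutation p = 0.00025, adjusted p = 0.0003, 9 of 9 same-letter pairs), with 7.11 in WT, 6.61 in KD3 and 9.89 in KD6. Against miR-32-5p, with 10 differences, the shift was 15-fold (exact permutation p = 0.00025, adjusted p = 0.0003), from 43.6 to 84.2 in input to between 474 and 1440 in IP.

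miR-92a-3p to miR-92b-3p shifted little by comparison. The ratio was 360, 296 and 334 in the WT inputs and 490, 615 and 520 in the WT IP libraries. The mean shift over conditions was 0.36 on the log2 scale, or 1.29-fold (exact permutation p = 0.114, higher in 8 of 9 same-letter pairs), where 0.5 was added to each count because miR-92b-3p had no read in KD6 input A. Without that library the shift was 0.55 (exact permutation p = 0.0005), and with 5 added to each count it was 0.75 (exact permutation p = 0.00025).

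miR-92a-3p and miR-19b-3p, which each have a copy in the Mir17hg transcript, moved far apart. Their ratio was 48.1, 45.5 and 42.1 in the WT inputs and 8474, 11115 and 16388 in the WT IP libraries, and over conditions the shift was 270-fold (exact permutation p = 0.00025, adjusted p = 0.0003). The ratio of the arms of the miR-92a-1 hairpin, miR-92a-3p to miR-92a-1-5p, was among the 6 ratios adjusted together. Its result is not used, since miR-92a-1-5p passed the filter on low counts only through its inputs. Of the 9 IP libraries, 5 had no read of it. Part of the reads of miR-92a-3p and of miR-19b-3p was also assigned to their second loci, which have the same mature sequences. In the inputs the median share of the second locus was 6.86% for miR-92a-3p and 50.2% for miR-19b-3p.

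**Figure D4:**
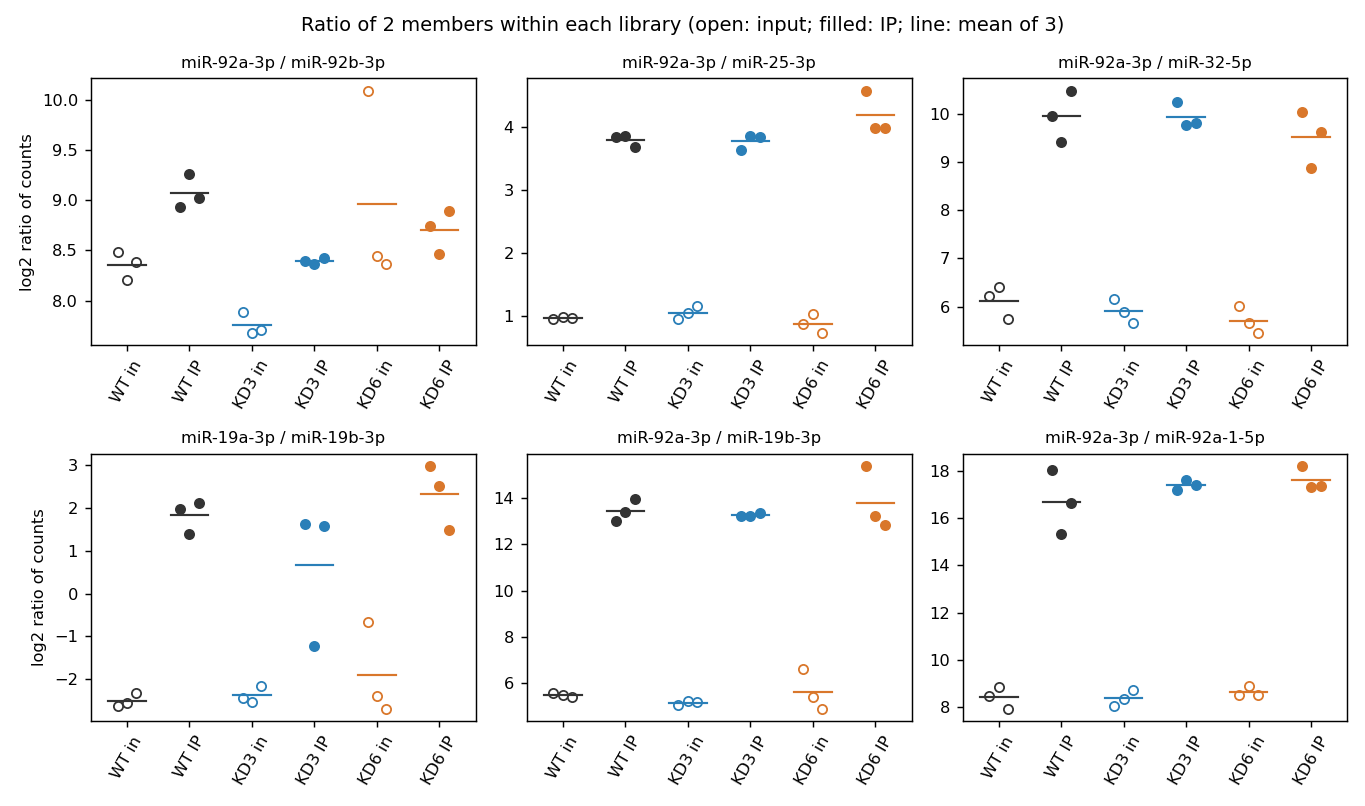
log2 ratio of the counts of 2 members in each library, 0.5 added to each count, with open circles for input, filled circles for IP and lines for means of 3. The ratio of miR-92a-3p to miR-25-3p lies between 0.72 and 1.15 in the inputs and between 3.64 and 4.57 in the IP libraries, while that of miR-92a-3p to miR-92b-3p overlaps.

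The changes in enrichment between conditions ask whether loss of Pus1 altered recovery by the antibody. No member was called in any of the 3 changes (edgeR interaction contrasts). Among all miRNAs 0% were called for KD3 against WT, 0% for KD6 against WT and 0.182% for KD6 against KD3, and 16, 119 and 112 of 550 had an unadjusted p under 0.05. DESeq2, fitted to 1212 miRNAs, called 0, 32 and 31, with 0 members among them. The count for KD6 against WT also depended on the setting. It was 57 without KD6 IP C, 51 with total mapped reads and 14 without KD6 input A, again with 0 members. The KD3 and KD6 changes share the WT libraries.

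For miR-92a-3p the log2 ratio was larger by 0.39 ± 0.28 in KD3 and by 0.69 ± 0.28 in KD6 than in WT (SE, edgeR adjusted p = 1.00 and 0.182). For miR-92b-3p it was larger by 0.46 ± 0.36 and 0.99 ± 0.38 (SE, edgeR adjusted p = 1.00 and 0.161). In KD6 both members had an unadjusted p under 0.05 (0.0234 and 0.0154), as did 21.6% of all miRNAs, and the median of all miRNAs was itself 0.25. Without KD6 input A the KD6 values fell to 0.31 and 0.72. The value for miR-92a-3p was -0.11 with total mapped reads as library size, a scaling that moved the median of all miRNAs to -0.56. With library size alone its log2 ratio of IP to input was 2.80 in WT and 2.85 in KD6. With TMM factors these ratios were 2.65 and 3.33.

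The other members had changes from -1.56 to 0.48 in KD3 and from -1.31 to 0.49 in KD6, and from -0.30 to 1.00 for KD6 against KD3. The lowest against WT belonged to miR-92a-1-5p, with an SE of 1.23 in KD3 and 1.26 in KD6. For the remaining 6 members the SE of a change against WT was 0.27 to 0.58, and a change of that order was not detectable with these libraries. Changes larger than their SE also went uncalled, such as that of miR-92b-3p in KD6 (0.99 ± 0.38, SE).

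Input libraries show the abundance of the members before IP. miR-92a-3p was 4576 ± 214 CPM in WT, 3476 ± 247 in KD3 and 3806 ± 968 in KD6 (SD, n = 3), and miR-25-3p was 2349 ± 114, 1678 ± 23.4 and 2085 ± 597. For both, all KD3 inputs lay below all WT inputs. The same was seen for 15.1% of all miRNAs in that comparison. The log2 differences were -0.40 ± 0.20 for miR-92a-3p and -0.48 ± 0.19 for miR-25-3p (SE, edgeR adjusted p = 0.607 and 0.398), and no member was called. When only the 6 libraries of that comparison were fitted both were called (edgeR adjusted p = 0.00631 and 0.00111), with the spread then estimated from those libraries alone.

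No member was called between KD6 and WT inputs or between KD6 and KD3 inputs either, where 3.09% and 4.0% of all miRNAs were. For KD3 against WT inputs it was 0%, with 44 of 550 at an unadjusted p under 0.05, while DESeq2 called 12 miRNAs and 0 members. The levels of miR-19b-3p in input were 101 ± 3.24, 97.1 ± 3.24 and 91.7 ± 62.1 CPM in WT, KD3 and KD6, and those of miR-19a-3p 17.8 ± 2.40, 18.8 ± 3.23 and 19.1 ± 3.98 (SD, n = 3). In KD6 the spread of miR-19b-3p came from input A, at 24.7 CPM on 5 reads.

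The order of members by input level in WT was miR-92a-3p, miR-25-3p, miR-19b-3p, miR-32-5p, miR-19a-3p, miR-92b-3p and miR-92a-1-5p. The last 3 had overlapping or adjoining ranges, 15.7 to 20.4, 13.0 to 15.9 and 10.2 to 17.7 CPM. In WT IP the order was miR-92a-3p, miR-25-3p, miR-92b-3p, miR-32-5p, miR-19a-3p, miR-19b-3p and miR-92a-1-5p, in which miR-92b-3p had moved up and miR-19b-3p down.

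The other products of the same primary transcripts, a list of 16, had 12 tested. In WT, 2 were higher in IP and 7 lower, with a median log2 ratio of -2.37, where 31.5% of all miRNAs were higher and 37.5% lower. In KD3 again 2 rose and 7 fell, and in KD6 2 rose and 8 fell, with medians of -1.97 and -2.48. Among all miRNAs 34.4% rose and 36.2% fell in KD3, and 35.8% rose and 35.5% fell in KD6. Of the lower products, miR-18a-5p had 2, 3.5 and 2 reads in WT IP, miR-106a-5p 0.9, 1.8 and 1, and miR-20a-3p 0, 1 and 0. These passed the filter on low counts only through their inputs, so their direction was largely set by the filter. The number of lower products is therefore not in itself a feature of this list. Along Mir17hg the ratios in WT ran from -3.21 for miR-17-5p and -6.27 for miR-18a-5p to 1.05 for miR-20a-5p, and miR-92a-3p at the 3′ end was the highest. miR-17-5p and miR-20a-5p, which share the seed that targets E2f1, also went in opposite directions. From the Mcm7 hairpins, miR-106b-5p (-4.20) and miR-93-5p (-1.97) were lower in IP, while miR-25-3p (0.13) was not called.

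The opposite arms of the members' hairpins form a list of 8, of which 3 had enough reads to be tested. All 3 were higher in WT IP, miR-92b-5p at 2.85 ± 0.41, miR-25-5p at 1.54 ± 0.24 and miR-32-3p at 0.98 ± 0.38 (SE), and 2 of 3 in KD3 and 3 of 3 in KD6, where 31.5%, 34.4% and 35.8% of all miRNAs were higher. Both tested arms of the miR-92b hairpin were therefore higher in IP. No contrast is drawn with the miR-92a-1 hairpin, since the direction of miR-92a-1-5p was largely set by the filter on low counts. Of the cluster list 1 product, miR-17-3p, was called for a change in enrichment, at -5.01 ± 0.95 in KD6 against KD3 (SE, edgeR adjusted p = 0.0158), where KD6 IP held 1 read in all. No miRNA was called for that change when KD3 IP C, KD6 input C or KD6 IP B was left out. Other settings called more miRNAs, with 63 without KD6 IP C, 21 without KD6 input A and 12 with library size alone.

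**Figure D5:**
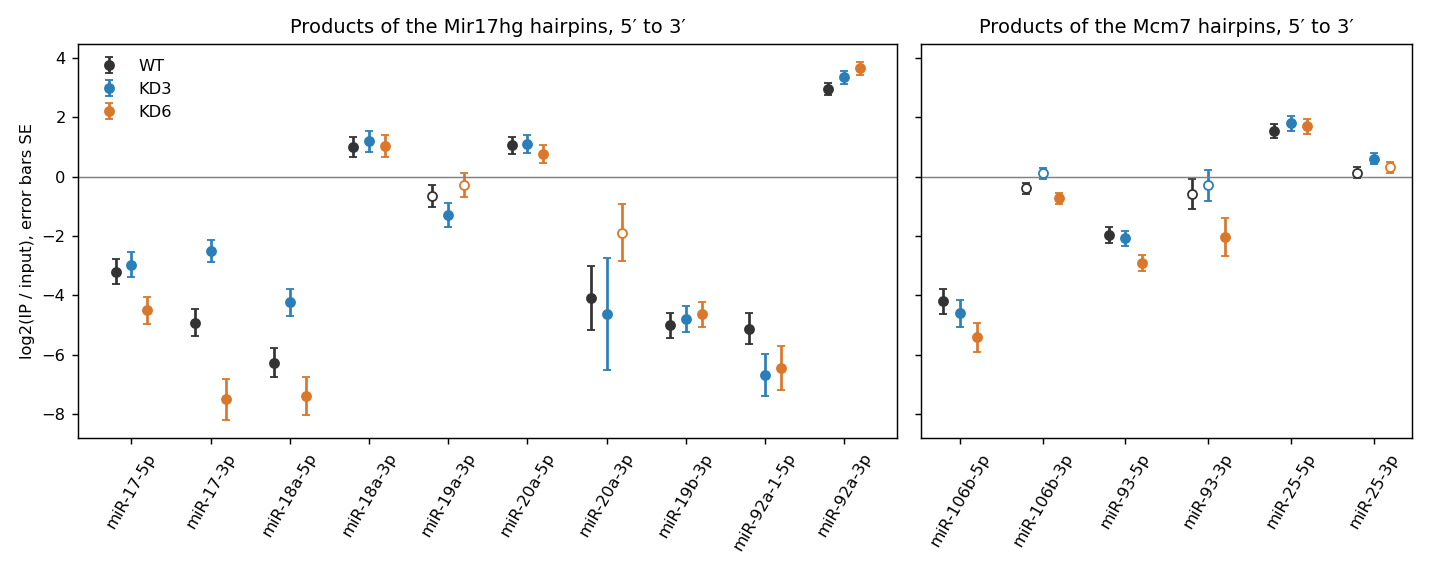
log2 ratio of IP to input for the tested products of the Mir17hg hairpins (left) and the Mcm7 hairpins (right), in order from 5′ to 3′, for WT (black), KD3 (blue) and KD6 (orange), with SE as error bars and open symbols where the adjusted p was 0.05 or more. Products of the same transcript lie on both sides of 0, from -6.27 for miR-18a-5p to 2.95 for miR-92a-3p in WT. miR-18a-5p had 2, 3.5 and 2 reads in the WT IP libraries. Like miR-20a-3p and miR-92a-1-5p, it passed the filter on low counts only through its inputs, which largely set its direction.

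Base composition varied across the members. The most enriched, miR-92a-3p and miR-92b-3p, had 57.1% and 63.6% G or C, miR-25-3p had 50%, and miR-92a-1-5p, miR-19b-3p, miR-19a-3p and miR-32-5p had 47.8%, 39.1%, 34.8% and 31.8%. The number of uridines, the base from which Ψ is made, was 7 in miR-92a-3p, 6 in miR-92b-3p, 8 in miR-25-3p, miR-32-5p and miR-92a-1-5p, 6 in miR-19a-3p and 5 in miR-19b-3p. The substitution between the miR-19 pair removes 1 uridine from miR-19b-3p. Over 475 of the 550 tested miRNAs with a RefSeq sequence, Pearson's r of the WT log2 ratio was 0.20 with G and C content and 0.06 with the number of uridines, across miRNAs that share the same 6 libraries and are not independent replicates.

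The 2 loci of miR-92a-3p differ in the reads the table assigned to them. The chromosome X row took 5.14% to 9.14% of miR-92a-3p reads in the inputs and 5.58% to 8.75% in the IP libraries, so these shares overlapped. For miR-19b-3p the rows of the 2 loci took a median of 49.8% and 50.2% in the inputs and 50.7% and 49.3% in IP. As the mature sequence is the same at both loci, the rows cannot be read as output of each locus.

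The pattern of miR-92a-3p over the 18 libraries was most like those of let-7d-3p (Pearson's r = 0.988), miR-365-3p (0.987) and miR-125a-5p (0.986) among 148 miRNAs with a mean of at least 100 CPM. For miR-19b-3p the nearest were miR-103-3p (0.975), miR-872-5p (0.973) and miR-199b-5p (0.972). These correlations describe log2 levels over libraries that divide into IP and input, and are no test. Among members, miR-19b-3p had r = 0.539 with miR-19a-3p and ran opposite to miR-92a-3p (r = -0.943). Its r with miR-92a-1-5p was 0.967. That value is not read as a likeness, since the filter on low counts largely set the direction of miR-92a-1-5p.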

How the data were processed

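Small RNA of NIH/3T3 cells was sequenced as input and after Ψ-IP in WT, KD3 and KD6 cells, 18 libraries. The authors prepared libraries with a kit for small RNA, trimmed the 3′ adapter and ran SeqImp (version not given in the sources used here) with its mouse miRNA settings, mm10, Ensembl 89 and miRBase 21. The deposited values are estimated counts per mature miRNA and precursor, not normalized, in 2045 rows, with distinct read sequences in further columns. The authors tested their counts with DESeq2.

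Here, estimated counts were summed over the precursor rows of each mature miRNA (78 had several) and rounded. A row of total mapped reads names no miRNA and was left out of tests and library sizes. Reads outside miRNA rows were 5.47% to 38.2% of that total. edgeR 4.0.16 in R 4.3.3 (median-ratio factors, filterByExpr, glmQLFit, glmQLFTest) fitted 6 group means over 18 libraries without a block to 550 miRNAs. The threshold for the 9 comparisons was 0.05 after Benjamini-Hochberg adjustment. SE was taken as the absolute log2 ratio divided by the root of F. Within-library ratios (0.5 added to counts) were tested by two-sided exact permutation within condition. Of 7 ratios set, 6 were run, as miR-363-3p had no reads. The fit was checked on simulated counts. Counting intervals are exact at 95%.

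All members were named. For miR-92a-3p and miR-19b-3p the 3 miRNAs with the most similar log2 CPM were named as well. Members, lists and tests were chosen with earlier results of these data known. Alternatives were TMM factors, library size alone, total mapped reads, DESeq2 1.42.0, no filter, a mean of at least 10 counts, the largest precursor row, the replicate letter as a block, only the libraries compared, 5 added to counts, and each library left out. Whether replicate letters pair libraries was checked from deviations across 188 miRNAs. Same-letter pairs exceeded 0.1 for KD3 against WT input (r from 0.20 to 0.61) and KD6 against KD3 input (0.24 to 0.34), from the values alone.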

Additional observations from a re-analysis of the deposited data

How the results depend on the processing

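Over 315 values of the 7 tested members under alternatives for IP against input, 286 kept their direction and their side of the threshold. The 286 include miR-92a-1-5p under all 15 alternatives in each condition, where its direction was largely set by the filter on low counts. miR-25-3p changed sign in WT to -0.17 (TMM factors), -0.022 (library size alone) and -0.21 (total mapped reads), and in KD6 to -0.46 (library size alone) and -0.80 (total mapped reads), and leaving out a library gave -0.34 to 0.53. With total mapped reads 7 members were called in KD6 in place of 4, and with only the libraries compared 2 were called for KD3 against WT inputs in place of 0. For KD6 against WT, the change for miR-92a-3p was -0.11 with total mapped reads. The shift of miR-92a-3p to miR-92b-3p passed the threshold with 5 added to counts (0.75) and ran from 0.26 to 0.55 when a library was left out. The cause of these shifts was not tested. In the other changes of enrichment and input comparisons, no member was called under any alternative, and signs of values near 0 turned in some.

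With the replicate letter as a block, the count of members called was 5 in WT, 7 in KD3 and 4 in KD6, the added call being miR-32-5p in KD3 (-0.70), which 7 other alternatives also called. The letters share only a name there, as some same-letter correlations were at or under 0.1. For the input comparisons that the letters paired, the replicate block called 0 members, and it changed no other call of a member.

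Depth limits miR-92a-1-5p in IP. miR-363-3p had 0 reads in all 18 libraries, which allows up to 0.0232 CPM over the libraries together. Replicate A of the KD6 input held 5 reads of miR-19b-3p and 3 of miR-19a-3p, and leaving it out moved the KD6 values of miR-92a-3p from 3.65 to 2.99 and of miR-32-5p from -0.37 to -0.99. Without an IP from a control antibody, recovery that does not depend on Ψ cannot be told apart from recovery through Ψ. Reads of 19a and 19b, which differ at 1 base, rest on the counting of the authors.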

Other observations

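The number of distinct read sequences, a deposited column that entered no comparison, gives the variety of reads behind each member. miR-92a-3p had a median of 490 distinct sequences per input library and 716 per IP library (n = 9 each), with medians of 89.7 and 221 reads per distinct sequence. miR-25-3p had medians of 349 and 221 distinct sequences, with 64.9 and 42.9 reads for each. For miR-19b-3p the medians were 63.2 in input and 4.10 in IP, and for miR-19a-3p 29.5 and 10.4. miR-92a-1-5p had a median of 16.0 in input, and 5 of 9 IP libraries had none. The number of distinct sequences rises with the number of reads, so these values were not compared between input and IP.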
